A study of Mus musculus with 5 samples.

Results

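The nuclei described here were 250 adipocyte nuclei of the fat around the mouse heart (peri-heart white adipose tissue, HWAT) that carried transcripts of thermogenic fat. They were chosen from 12646 HWAT nuclei in a series of 76040 nuclei from 5 white adipose depots. A nucleus was called an adipocyte when it had at least 200 genes detected, at most 10% mitochondrial UMIs, at least 4 UMIs over 8 adipocyte genes (at least 3 of them detected) and at most 1 UMI over 9 genes of other cell types. A UMI (unique molecular identifier) marks 1 captured RNA molecule. Of 1774 such HWAT adipocytes, 250 (14.1%, 95% exact binomial interval 12.5 to 15.8) held at least 2 UMIs over Ucp1, Fabp3, Cpt1b and Otop1 and are called thermogenic. The other 1524 held at most 1 UMI over these 4 genes and are called the other adipocytes. The study set out to map cell types of fat depots in chow-fed male mice. Nuclei of 10-week-old animals were captured in droplets, and the 3′ ends of their RNA were sequenced. HWAT was pooled from 20 mice into 1 library, after the blood had been flushed out with heparin in saline. Subcutaneous (SWAT), epididymal (EWAT) and perirenal (NWAT) fat came from 6 mice each and mesenteric fat (MWAT) from 10 mice, also with 1 library per depot. All mice were wild type. Their strain is C57BL/6J in the protocol, whereas the labels enter HWAT as C57BL/9J, MWAT as C57BL/7J and NWAT as C57BL/8J. Neighbouring lymph nodes were taken out of SWAT and MWAT, a step that the protocol does not name for HWAT.

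Thermogenic adipocytes, brown or beige, burn fatty acids in mitochondria that are uncoupled by UCP1, so that the energy of the respiratory chain leaves as heat. Noradrenaline switches them on through adrenergic receptors and cyclic AMP, which frees fatty acids from small lipid droplets and raises transcription of the thermogenic genes. In mice, fat near the heart and great vessels is known to hold such cells among white adipocytes, whose main tasks are to store triglyceride and to secrete hormones such as leptin.

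With 1 pooled library per depot there was no replicate, and nuclei of 1 pool are not replicates, so no test was made. Values are UMIs summed over a group and scaled to CPM (UMIs per 1e+06 summed UMIs of the group), and ratios are thermogenic over other adipocytes. Brackets hold 95% intervals of counting error only. The thermogenic nuclei summed to 665460 UMIs and the other adipocytes to 3399877 UMIs, with medians of 2426.5 and 2035 UMIs and of 1260 and 1038.5 genes per nucleus. Since a deeper nucleus reaches 2 UMIs more easily, the rule was also applied after thinning each nucleus to 1000 UMIs, and 149 HWAT nuclei met it. The median share of mitochondrial UMIs was 1.98% in thermogenic nuclei and 0.977% in the other adipocytes. Barcodes that also occurred in another library numbered 8 among the thermogenic nuclei, and without them, a setting chosen after the data had been seen, 569 genes were at least 2-fold higher and 693 lower, against the 589 and 684 given below. The same rule found 37 of 6815 adipocytes in SWAT (0.543%, 0.383 to 0.748), 3 of 9874 in EWAT, 2 of 4781 in MWAT and 13 of 6888 in NWAT.

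The label was checked against Cidea, a marker that took no part in the selection. Cidea, whose protein coats lipid droplets and is typical of brown fat, reached 2436 CPM (2319 to 2557) in thermogenic nuclei, against 161 CPM (148 to 175) in the other adipocytes. At least 1 Cidea UMI was found in 226 of the 250 thermogenic nuclei (90.4%), against 255 of the 1524 other adipocytes (16.7%). After thinning to 1000 UMIs these shares were 79.9% of 244 thermogenic nuclei and 11.4% of 1402 other adipocytes. Free RNA in the droplets gives such UMIs too, and 912 HWAT B-cell nuclei thinned the same way had a Cidea UMI in 0.987% (before thinning, the median depth of these B-cell nuclei was 1166 UMIs). These nuclei were required to hold at most 1 UMI over the 8 adipocyte genes. That leaves out B-cell nuclei with more adipocyte RNA, so this share can be too low. Of the 4 selecting genes, which are given only as a description, Ucp1 itself was present in 196 of the 250 thermogenic nuclei. In 44 of the nuclei the selection rested on Fabp3 and Cpt1b alone, with neither Ucp1 nor Otop1, and 30 of those 44 held a Cidea UMI.

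Heart muscle RNA stood apart in some of the nuclei. Over 21 heart muscle genes (contractile proteins, their calcium handling and natriuretic peptides), the thermogenic nuclei held 776 UMIs or 1166 CPM, against 412 UMIs or 121 CPM in the other adipocytes. Most of this came from few nuclei, since 22 thermogenic nuclei with at least 3 heart muscle UMIs held 729 of the 776 UMIs, and the 3 richest of them held 493. The other adipocytes had 21 such nuclei with 126 UMIs. Without these nuclei the level was 80.2 CPM in 228 thermogenic nuclei and 85.7 CPM in 1503 other adipocytes, and 4 of the 21 genes had 0 UMIs even among all 250 thermogenic nuclei. Fabp3 and Cpt1b, which select the nuclei, are also genes of heart muscle, and 8 of the 22 heart-rich nuclei had neither Ucp1 nor Otop1. Cidea was found in 14 of the 22 heart-rich nuclei, against 212 of the 228 other thermogenic nuclei. Values without the heart-rich nuclei, a setting chosen after the data had been seen, are given below for the results they move most.

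**Figure D1:**
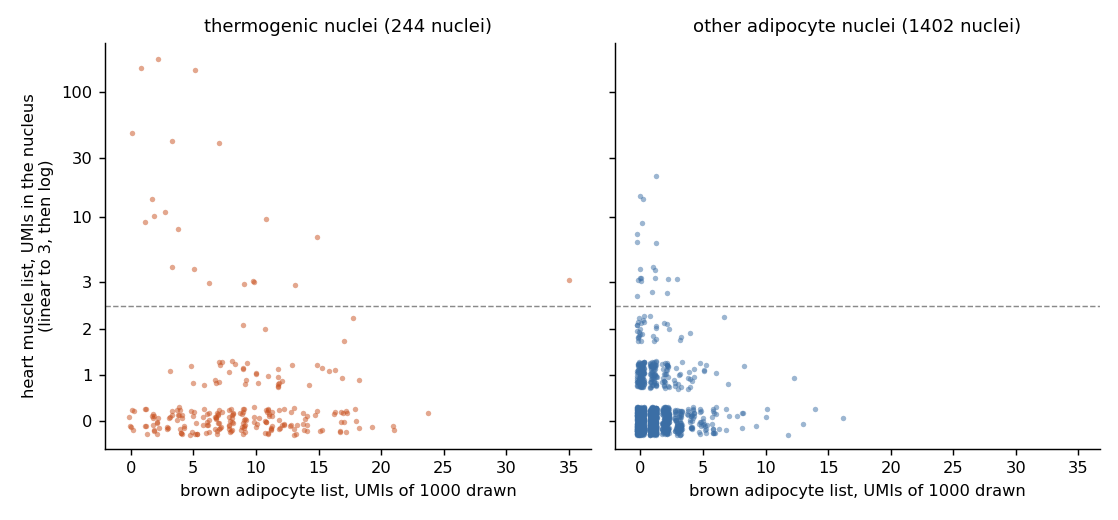
Heart muscle UMIs in each nucleus (vertical axis, linear up to 3 and logarithmic above) against UMIs of the brown adipocyte list among 1000 UMIs drawn from that nucleus (horizontal axis), for 244 thermogenic nuclei (left) and 1402 other adipocyte nuclei (right) with at least 1000 UMIs, with a small random offset on each point. The dashed line separates nuclei with 3 or more heart muscle UMIs, and the highest thermogenic nucleus held 185 of them.

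Of 8348 genes with at least 50 UMIs over both groups, 589 (7.06%) were at least 2-fold higher and 684 (8.19%) at least 2-fold lower in thermogenic nuclei, and the median log2 ratio was 0.08. Without the heart-rich nuclei, 8186 genes were measured, of which 586 (7.16%) were higher and 750 (9.16%) lower. A gene could reach the minimum through the group in which it was high, so counts over the measured members of a list are descriptions, to be read against these shares. Scaling by edgeR's TMM factors moved that median by -0.17 and the split to 406 higher and 889 lower. The gene with the highest lower bound was Lncbate10, a long noncoding RNA described in mouse brown adipocyte differentiation, with 103 UMIs in thermogenic nuclei and 3 UMIs in the other adipocytes (ratio 175, 58.4 to 865). Its UMIs lay in 47 thermogenic nuclei. Gk, which encodes the glycerol kinase that lets an adipocyte reuse glycerol, had 323 CPM in thermogenic nuclei and 9.71 CPM in the other adipocytes (ratio 33.3, 23.0 to 49.6). It lies on chromosome X from 85701937 to 85776819 on the minus strand (GRCm38, GENCODE vM21). A530065N20Rik, a long intergenic noncoding RNA, had 61 UMIs in thermogenic nuclei and 6 UMIs in the other adipocytes, and Gmpr, a GMP reductase of purine metabolism, had 45 UMIs in thermogenic nuclei and 7 UMIs in the other adipocytes. Pank1, which makes the coenzyme A that fatty acid breakdown consumes, was 15.7-fold higher (12.0 to 20.6), and Slc25a42, which carries coenzyme A into mitochondria, was 12.5-fold higher (10.6 to 14.8). Rnf152, a ubiquitin ligase of lysosomes, was 16.0-fold higher (10.6 to 24.6).

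The same ranking by lower bound held 3 genes of striated muscle. Myl7 and Myl4, light chains of atrial myosin, were 15.2-fold and 15.4-fold higher in thermogenic nuclei, and Cox6a2, the muscle form of a cytochrome oxidase subunit, was 17.2-fold higher. Without the heart-rich nuclei the ratios were 1.04 for Myl7 (0.495 to 2.01), 1.09 for Myl4 (0.440 to 2.34) and 0.814 for Cox6a2 (0.207 to 2.33). Of the 118 Cox6a2 UMIs in thermogenic nuclei, 114 lay in the 22 heart-rich ones. The other 12 genes of the ranking stayed at least 12.8-fold higher without those nuclei, as the plot of the named ratios shows.

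**Figure D2:**
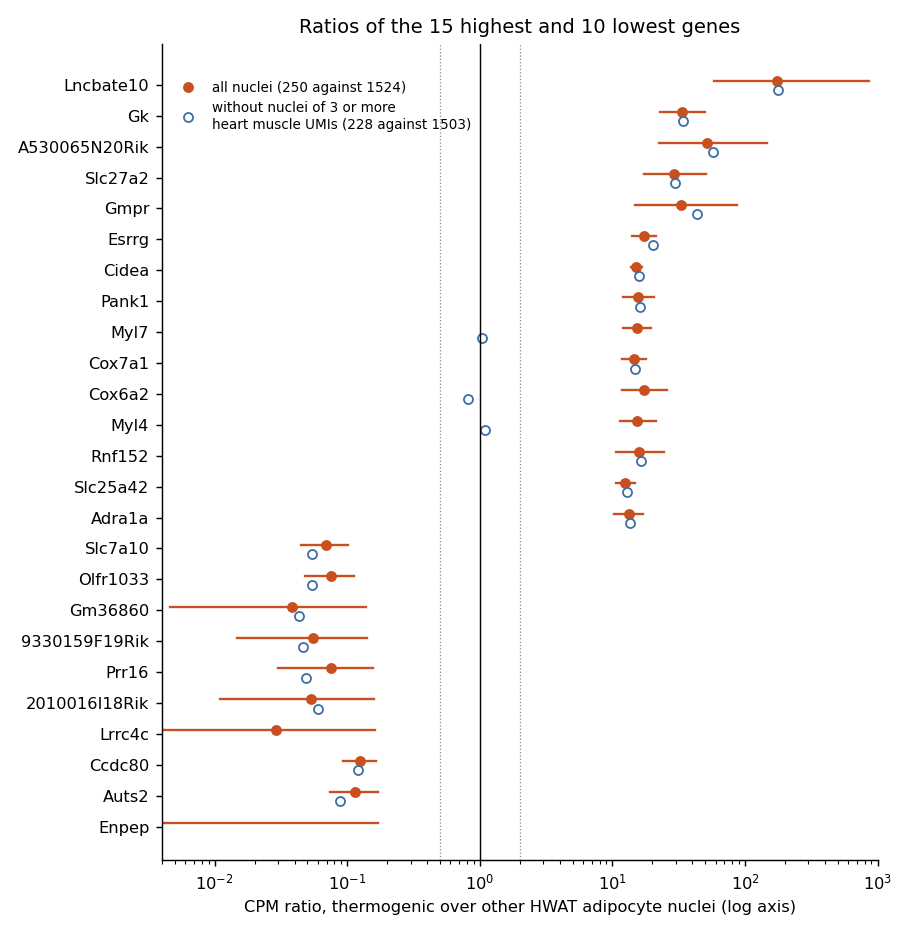
CPM ratio of thermogenic over other HWAT adipocyte nuclei (log axis) for the 15 genes with the highest lower bound and the 10 with the lowest upper bound. Filled points with bars are ratios with 95% counting intervals over all nuclei, open points leave out nuclei with 3 or more heart muscle UMIs, dotted lines mark 2-fold, bars that reach the left edge go on below it, and a ratio of 0 (Enpep, and Lrrc4c without heart-rich nuclei) has no point. Myl7, Cox6a2 and Myl4 move to between 0.814 and 1.09 without the heart-rich nuclei.

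Slc27a2, which encodes a transporter that activates long-chain fatty acids with coenzyme A, had 102 UMIs (153 CPM) in thermogenic nuclei and 18 UMIs (5.29 CPM) in the other adipocytes, a ratio of 29.0 (17.4 to 50.8). The promoter windows of 300 bases in RefSeq (GRCm38.p6, from 250 bases before the start of the gene to 50 after) were searched on both strands for AAGGTCA, the site that estrogen-related receptors such as ESRRG are known to bind. Slc27a2 was the 1 match among the 15 windows found for 11 of the 15 highest genes. A second member shown is Acadm, the medium-chain dehydrogenase of fatty acid breakdown and the 1 match among 21 windows of that pathway's list. The third is Sdhd, the membrane anchor of succinate dehydrogenase, among the 9 of 72 windows with a match (12.5%) in the respiratory chain and ATP synthase lists. Capitals mark the match, printed here as it reads on the gene's strand, where TGACCTT is the same site on the opposite strand. The windows lie at chr2:126552774-126553073 (plus strand), chr3:153944594-153944893 (minus strand) and chr9:50603800-50604099 (minus strand).
Slc27a2: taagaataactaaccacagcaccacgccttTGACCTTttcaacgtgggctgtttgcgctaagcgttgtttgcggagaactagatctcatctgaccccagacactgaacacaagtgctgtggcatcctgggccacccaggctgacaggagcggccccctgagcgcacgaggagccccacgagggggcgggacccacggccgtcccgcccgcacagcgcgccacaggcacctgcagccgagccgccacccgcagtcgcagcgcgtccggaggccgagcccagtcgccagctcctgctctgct
Acadm: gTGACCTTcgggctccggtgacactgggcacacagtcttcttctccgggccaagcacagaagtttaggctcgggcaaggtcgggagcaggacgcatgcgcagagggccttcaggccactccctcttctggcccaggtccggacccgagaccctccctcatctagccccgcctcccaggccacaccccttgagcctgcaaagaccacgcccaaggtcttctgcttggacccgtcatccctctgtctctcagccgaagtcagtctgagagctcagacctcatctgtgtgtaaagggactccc
Sdhd: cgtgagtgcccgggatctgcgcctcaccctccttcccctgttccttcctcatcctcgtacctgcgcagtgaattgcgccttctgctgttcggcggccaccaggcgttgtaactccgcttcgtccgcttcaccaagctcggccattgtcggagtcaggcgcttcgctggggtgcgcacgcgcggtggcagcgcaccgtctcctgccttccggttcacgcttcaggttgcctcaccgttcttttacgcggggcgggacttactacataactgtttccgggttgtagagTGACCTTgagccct
Over all 32851 windows the site was found in 1550 (4.72%), against 25 of 614 windows (4.07%) of the genes at least 2-fold higher and 18 of 684 (2.63%) of those at least 2-fold lower. Its share among the higher genes was thus close to that of all windows. The site of a PPAR receptor with its RXR partner (AGGTCA in 2 copies with 1 base between them) was in 13 of the 32851 windows and in 0 of the 614. This exact site was too rare over all windows for the 0 to say whether its share differs among the higher genes.

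The brown adipocyte list holds 27 genes taken here as marks of brown fat in mice. Like the other lists, including the white one, it was chosen with earlier results of these data known. Its counts therefore describe the nuclei and are no independent check of the label. Of its 16 measured members 15 were at least 2-fold higher and 0 lower, against 7.06% and 8.19% of all genes, with a median log2 ratio of 3.29. Lncbate10, Slc27a2, Gk and Acot2, an acyl-CoA thioesterase, had under 50 UMIs in the other adipocytes and were measured only together with their UMIs in thermogenic nuclei. Without the heart-rich nuclei the number higher was also 15. With no minimum, 22 of the 27 were higher and 3 lower, each of the 3 with at most 3 UMIs in all. Besides those named above, Slc4a4, a bicarbonate cotransporter, had 978 CPM in thermogenic nuclei and 90.9 CPM in the other adipocytes (ratio 10.8). Pdk4, a kinase that holds back glucose oxidation, was 10.1-fold higher (8.57 to 12.0), and Plin5, which tethers lipid droplets to mitochondria, was 5.29-fold higher (4.38 to 6.39). Ntrk3, a neurotrophin receptor, had 600 CPM in thermogenic nuclei and 62.9 CPM in the other adipocytes, a ratio of 9.53. The potassium channel gene Kcnk3 was 4.98-fold higher and Letmd1, a mitochondrial protein needed by brown fat, was 3.32-fold higher. Mtus1 was the member that stayed within 2-fold, at 204 CPM in thermogenic nuclei and 180.0 CPM in the other adipocytes.

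Several textbook brown genes were hardly counted. Dio2, the deiodinase that makes active thyroid hormone in stimulated brown fat, had 7 UMIs in thermogenic nuclei and 3 UMIs in the other adipocytes. Elovl3, an elongase that cold induces, and Zic1, a transcription factor of interscapular brown fat, had 1 UMI each in thermogenic nuclei and 0 in the other adipocytes. Lhx8, another factor of classical brown fat, had 9 UMIs in thermogenic nuclei and 26 UMIs in the other adipocytes, and the secreted factors Fgf21 and Bmp8b had 0 UMIs in thermogenic nuclei and 3 UMIs each in the other adipocytes. A count of 0 allows up to 4.51 CPM in the thermogenic nuclei. These genes fell below the minimum of 50 UMIs, so no direction is given. Of the 10 genes proposed as beige adipocyte markers only 3 were measured, and all 3 were higher in thermogenic nuclei: P2rx5, an ATP-gated channel (6.50-fold), Aqp7, the glycerol channel (3.51-fold), and Slc36a2, an amino acid transporter (2.03-fold). Over all genes 7.06% were higher and 8.19% lower. The number of these markers that were higher was 2 with TMM factors, 2 among nuclei with at most 2% mitochondrial UMIs, and 2 of 2 measured without the heart-rich nuclei. Tmem26, Cited1 and Hoxc9 had 0 UMIs in both groups, and Aqp7 is also a member of the triglyceride assembly and lipolysis lists. The 3 higher members are thus not read as marking beige rather than brown cells.

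Among 25 measured regulators of brown fat genes, 7 were at least 2-fold higher in thermogenic nuclei and 0 lower, against 7.06% and 8.19% of all genes, with a median log2 ratio of 0.66. Without the heart-rich nuclei 7 were higher and 1 lower. Esrrg, an estrogen-related receptor that drives mitochondrial genes, had 654 CPM in thermogenic nuclei and 37.9 CPM in the other adipocytes (ratio 17.2, 14.1 to 21.1). Ppara, the fatty acid receptor that drives fatty acid oxidation, had 1171 CPM in thermogenic nuclei and 101 CPM in the other adipocytes (ratio 11.5, 10.1 to 13.1). The coactivator gene Ppargc1b had 948 CPM in thermogenic nuclei and 98.5 CPM in the other adipocytes (ratio 9.62), and its better-known relative Ppargc1a was 5.54-fold higher (4.28 to 7.18). Prdm16, which keeps the brown identity, was 4.92-fold higher (3.74 to 6.48), Esrra was 3.34-fold higher (2.49 to 4.45), and Ebf2, which opens chromatin at brown fat genes, was 3.13-fold higher (2.75 to 3.57). Pparg, the master regulator of all adipocytes, was 1.69-fold higher (1.58 to 1.81), and Ebf1 and Nfia stood at 1.64 and 1.58. Their intervals lay above 1 but below 2. Nrip1, a corepressor of these genes, had a ratio of 0.572 (0.459 to 0.707). Tfam, which packages mitochondrial DNA and activates its transcription, had a ratio of 1.04 (0.539 to 1.86), and Irf4 one of 1.23 (0.616 to 2.28).

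The RNA ratios of the adrenergic receptor genes differed by receptor. Adra1a, the alpha-1A receptor that acts through calcium, had 355 CPM in thermogenic nuclei and 26.8 CPM in the other adipocytes (ratio 13.2, 10.4 to 17.1). Adrb1, a beta receptor found in many tissues, was 4.79-fold higher (2.81 to 8.14). Adrb3, the beta receptor most used to activate brown fat in rodents, had 337 CPM (294 to 384) in thermogenic nuclei and 410 CPM (389 to 432) in the other adipocytes, a ratio of 0.820 (0.709 to 0.945). Downstream of the receptors, Gnas, the stimulatory G protein, was 3.33-fold higher, the adenylyl cyclase genes Adcy3 and Adcy9 were 6.49-fold and 3.48-fold higher, and Akap1, which anchors protein kinase A to mitochondria, was 7.46-fold higher. Prkar2b, the regulatory subunit of that kinase in fat, was 2.70-fold higher (2.45 to 2.97). The phosphodiesterase genes, whose products break down cyclic AMP, varied: Pde3a was 6.62-fold higher, Pde3b had a ratio of 1.19 and Pde10a one of 0.243. In all, 12 of 29 measured members of the list were at least 2-fold higher and 1, Pde10a, lower, against 7.06% and 8.19% of all genes. The list's median log2 ratio was 0.73. In the list of creatine and calcium cycling 6 of 11 measured members were higher and 0 lower, against the same shares (median log2 ratio 1.12). Without the heart-rich nuclei 4 members of this list were higher and 1 lower (median 0.74). Among its calcium release channels, Itpr2 was 9.66-fold (7.82 to 12.0) and Itpr1 2.66-fold higher. Sln, a small inhibitor of the calcium pump, had 84.2 CPM in thermogenic nuclei and 6.47 CPM in the other adipocytes, but a ratio of 0.380 without the heart-rich nuclei. The creatine kinase gene Ckb of the proposed creatine cycle had 13.5 CPM (9 UMIs) in thermogenic nuclei and 20.3 CPM (69 UMIs) in the other adipocytes. Its ratio was 0.666, with an interval that spans 1 (0.292 to 1.34), and 0.496 without the heart-rich nuclei. Ckmt2 had 11 UMIs in thermogenic nuclei and 2 UMIs in the other adipocytes. None of the Ckmt2 UMIs of the thermogenic nuclei was left without the heart-rich nuclei.

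Of 22 measured genes for burning fatty acids in mitochondria, 14 were at least 2-fold higher in thermogenic nuclei and 0 lower, against 7.06% and 8.19% of all genes, with a median log2 ratio of 1.15 and a range of ratios from 0.544 to 5.39. With TMM factors 10 were higher and 1 lower. The highest were Etfdh, which passes electrons from fatty acids to ubiquinone (322 CPM in thermogenic nuclei, 59.7 CPM in the other adipocytes, ratio 5.39), and Acadvl, the very long-chain dehydrogenase (ratio 5.15, 4.28 to 6.20). Acaa2 and Hadhb, which carry out the last step of the cycle, were 4.61-fold and 4.56-fold higher, and Acadm was 2.58-fold higher (2.29 to 2.90). For fatty acid breakdown in peroxisomes 3 of 15 members were higher and 1 lower, against 7.06% and 8.19% of all genes (median log2 ratio 0.46), and 5 were higher and 2 lower among nuclei with at most 2% mitochondrial UMIs. Ehhadh was 3.93-fold higher, and Abcd2, a transporter of very long-chain fatty acids, had a ratio of 0.370. The breakdown of branched-chain amino acids, which feeds brown fat in mice, had 0 of 17 members higher and 1, Bcat2, lower (ratio 0.276, 0.202 to 0.369), with a median log2 ratio of -0.15. These counts are near or below the shares of all genes (7.06% higher, 8.19% lower).

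In the citrate cycle and pyruvate oxidation 11 of 25 members were at least 2-fold higher and 0 lower, with a median log2 ratio of 0.82. For this list and the respiratory chain lists below, the shares of all genes were 7.06% higher and 8.19% lower. The median log2 ratio of all genes was 0.08. Sucla2, a succinyl-CoA synthetase subunit, had 576 CPM in thermogenic nuclei and 109 CPM in the other adipocytes (ratio 5.30). Pcx, which makes oxaloacetate for fatty acid synthesis, had a ratio of 0.526. All 37 measured complex I subunits had ratios above 1, with a narrow range from 1.21 to 3.01 and a median log2 ratio of 0.85, and 12 of them reached 2-fold. Complexes II and III with cytochrome c had 9 of 14 members higher (median 1.16), led by Cycs, cytochrome c itself, at 1919 CPM in thermogenic nuclei and 424 CPM in the other adipocytes. Complex IV had 8 of 14 higher (median 1.05), with Cox6a2 among the 8, and the ATP synthase 3 of 16 (median 0.78). These counts depended on the scaling and on the filter for mitochondrial UMIs. With TMM factors the numbers reaching 2-fold were 5 in complex I, 7 in complexes II and III, 5 in complex IV and 1 in the ATP synthase. Among nuclei with at most 2% mitochondrial UMIs they were 6, 7, 4 and 2 in that order, with 1 ATP synthase member then at least 2-fold lower. RNAs of the mitochondrial genome, which are carried over with cytoplasm, were also higher in thermogenic nuclei, with ratios between 1.65 (mt-Nd5) and 2.82 (mt-Atp8, 1.57 to 4.93, from 21 UMIs in thermogenic nuclei and 38 UMIs in the other adipocytes). The part of carried-over cytoplasm in the nuclear-encoded differences was not tested.

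Within complex IV, paired isoforms had different ratios. Cox7a1, the subunit form of muscle and brown fat, had 559 CPM in thermogenic nuclei and 38.5 CPM in the other adipocytes (ratio 14.5, 11.9 to 17.8), whereas its widely expressed counterpart Cox7a2 had a ratio of 1.61 (1.47 to 1.77). Cox8b was 7.44-fold higher (6.64 to 8.35) and Cox8a 1.33-fold (1.26 to 1.41). Both Cox7a1 and Cox8b kept their ratios without the heart-rich nuclei, at 14.7 and 7.57. Cox4i2 had 3 UMIs in thermogenic nuclei and 5 UMIs in the other adipocytes, too few for a direction. Among genes of mitochondrial fusion, import and carriers, 8 of 29 members were higher and 0 lower, against 7.06% and 8.19% of all genes (median log2 ratio 0.60), and 5 were higher with TMM factors. Chchd10, a protein of the mitochondrial intermembrane space, was 3.11-fold higher, Mfn2 of mitochondrial fusion was 2.59-fold higher, and Slc25a4, the ADP/ATP carrier of heart and muscle, was 2.01-fold higher over all nuclei and 1.39-fold without the heart-rich ones.

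Ratios of lipid handling genes differed by step. For every list of this paragraph, the shares of all genes were 7.06% higher and 8.19% lower. In fatty acid synthesis 6 of 17 measured members were at least 2-fold lower and 1 higher, against 8.19% and 7.06% of all genes, with a median log2 ratio of -0.81. Without the heart-rich nuclei 5 were lower and 2 higher. Me1, which supplies NADPH, had 93.2 CPM in thermogenic nuclei and 306 CPM in the other adipocytes (ratio 0.304), Acss2 had a ratio of 0.326, Insig1 one of 0.391 and Acaca, acetyl-CoA carboxylase, one of 0.471 (0.421 to 0.526). Elovl6, an elongase needed by brown fat mitochondria, was the member that was higher (2.89-fold, 2.27 to 3.67). In triglyceride assembly 6 of 13 members were higher and 0 lower (median log2 ratio 0.60), among them Gpd1, which makes the glycerol backbone from glucose (2.44-fold), and Agpat3 (2.95-fold), beside Gk and Aqp7. In lipolysis 3 of 15 members were higher and 2 lower (median log2 ratio 0.36). Its lipase Lipe, the hormone-sensitive lipase, had a ratio of 1.07 (0.962 to 1.18), and Pnpla2, the first lipase of the pathway, one of 0.911 (0.820 to 1.01). Of 12 droplet proteins 4 were higher and 2 lower (median log2 ratio 0.28). Beside Cidea and Plin5, which were higher, Cidec, which builds the large droplets of white fat, had 1165 CPM in thermogenic nuclei and 2302 CPM in the other adipocytes (ratio 0.506), and Plin4 had a ratio of 0.341 (0.292 to 0.397). In fatty acid uptake 3 of 14 members were higher and 2 lower (median log2 ratio -0.07, of changing sign between settings). There Vldlr, a receptor for triglyceride-rich lipoproteins, was 4.03-fold higher. Slc27a1, the widely expressed relative of Slc27a2, had a ratio of 0.497. In glycolysis 6 of 20 members were higher and 1, the glucose transporter gene Slc2a3, lower (median log2 ratio 0.84). Ldhb, the lactate dehydrogenase form that favours lactate use, was 4.07-fold higher, and Hk2, the hexokinase of fat and muscle, had a ratio of 0.937 (0.868 to 1.01).

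Most measured white adipocyte genes, 16 of 20, had ratios below 1, while the median log2 ratio of all genes was 0.08. Of the 20 members 10 were at least 2-fold lower and 0 higher, against 8.19% and 7.06% of all genes, with a median log2 ratio of -1.09. The other 10 stayed within 2-fold, and 4 members had ratios above 1, up to 1.60. Slc7a10, an amino acid transporter used as a surface marker of white adipocytes (chromosome 7, 35186385 to 35201114, plus strand), had 39.1 CPM in thermogenic nuclei and 567 CPM in the other adipocytes (ratio 0.0689, 0.0449 to 0.101). Its UMIs lay in 13 of the 250 thermogenic nuclei, against 888 of the 1524 other adipocytes. Retn, the adipokine resistin, had a ratio of 0.175 (0.149 to 0.204) and Trhde, a peptidase that degrades a neuropeptide, one of 0.0738. Adipoq, the gene for adiponectin and shared by all adipocytes, had a ratio of 0.583, and Fabp4, the main fatty acid carrier of fat cells, one of 0.851. Cfd, the complement factor adipsin, had 8288 CPM in thermogenic nuclei and 30817 CPM in the other adipocytes (ratio 0.269). B-cell nuclei of HWAT, which should lack it, held 1584 CPM of Cfd, and the part of free RNA in the Cfd of both groups was not tested. Over the secreted factors 10 of 20 members were lower and 2 higher, against 8.19% and 7.06% of all genes (median log2 ratio -0.95). Rbp4, the retinol carrier, had a ratio of 0.214 and Igf1 one of 0.227. The 2 higher were Angptl4, an inhibitor of lipoprotein lipase (3.07-fold), and Ntrk3, which the list holds although it encodes a receptor and not a secreted factor.

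Of 25 measured hormone receptors 6 were at least 2-fold lower and 1 higher, against 8.19% and 7.06% of all genes. Ptger3, a prostaglandin receptor that inhibits lipolysis, had 41 UMIs in thermogenic nuclei and 1041 UMIs in the other adipocytes (ratio 0.201) and Tshr, the thyrotropin receptor, one of 0.255. The 1 higher was Klb, the coreceptor of FGF21 (2.38-fold, named after its value had been seen). Thrb, a thyroid hormone receptor, stood at 1.33 (1.15 to 1.54). The list's median log2 ratio, -0.15, changed sign in some of the settings tried and is not read as a direction.

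Slc7a10 was also among the 10 genes with the lowest upper bound, and the other 9 are given here. Olfr1033, annotated as an olfactory receptor gene, had 24 UMIs in thermogenic nuclei and 1619 UMIs in the other adipocytes (ratio 0.0757, 0.0484 to 0.113). Ccdc80, a secreted matrix protein of white fat, had a ratio of 0.125 (0.0925 to 0.165), and Auts2, a developmental regulator, one of 0.114. Enpep, a membrane peptidase that cleaves angiotensin II, had 0 UMIs in thermogenic nuclei and 113 UMIs in the other adipocytes. It was 7.37-fold lower with the thermogenic level set to 3 counts over the group, and the interval of its ratio reached 0.170. Lrrc4c had 1 UMI in thermogenic nuclei and 177 UMIs in the other adipocytes, and the genes Gm36860 and 2010016I18Rik, annotated as not coding for protein, had 2 and 3 UMIs in thermogenic nuclei and 268 and 287 UMIs in the other adipocytes. The uncharacterised gene 9330159F19Rik had 4 UMIs in thermogenic nuclei and 373 UMIs in the other adipocytes, and Prr16 had 7 UMIs in thermogenic nuclei and 475 UMIs in the other adipocytes. HWAT stromal nuclei also carried Ccdc80 (455 CPM), Olfr1033 (317 CPM) and Auts2 (680 CPM).

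Other-cell RNA was lower in the thermogenic nuclei for most lists. Summed over each list, stromal progenitor genes stood at 1017 CPM in thermogenic nuclei and 1689 CPM in the other adipocytes, mesothelial genes at 682 CPM in thermogenic nuclei and 1049 CPM in the other adipocytes, macrophage genes at 1500 CPM in thermogenic nuclei and 2129 CPM in the other adipocytes, and plasma-cell genes, mostly Igkc, at 4107 CPM in thermogenic nuclei and 6025 CPM in the other adipocytes. Endothelial genes were at 49.6 CPM in thermogenic nuclei and 48.5 CPM in the other adipocytes. Genes of neurons and glia stood at 46.6 CPM in thermogenic nuclei and 166 CPM in the other adipocytes. Scn7a alone gave 16 of that list's 31 UMIs in thermogenic nuclei and 534 of its 564 UMIs in the other adipocytes. The difference is thus mostly that of 1 gene. Skeletal muscle genes stood at 34.6 CPM in thermogenic nuclei and 31.8 CPM in the other adipocytes. The part of this RNA in the genes that were lower in thermogenic nuclei was not tested. Immediate early genes, which respond within minutes to stimulation or handling, had 6 of 16 measured members at least 2-fold lower and 0 higher, against 8.19% and 7.06% of all genes (median log2 ratio -0.87). Fos had 8 UMIs in thermogenic nuclei and 212 UMIs in the other adipocytes, and Egr1 had 0 UMIs in thermogenic nuclei and 78 UMIs in the other adipocytes. Egr1 was 5.09-fold lower with its thermogenic level set to 3 counts over the group, and the interval of its ratio reached 0.247.

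**Figure D3:**
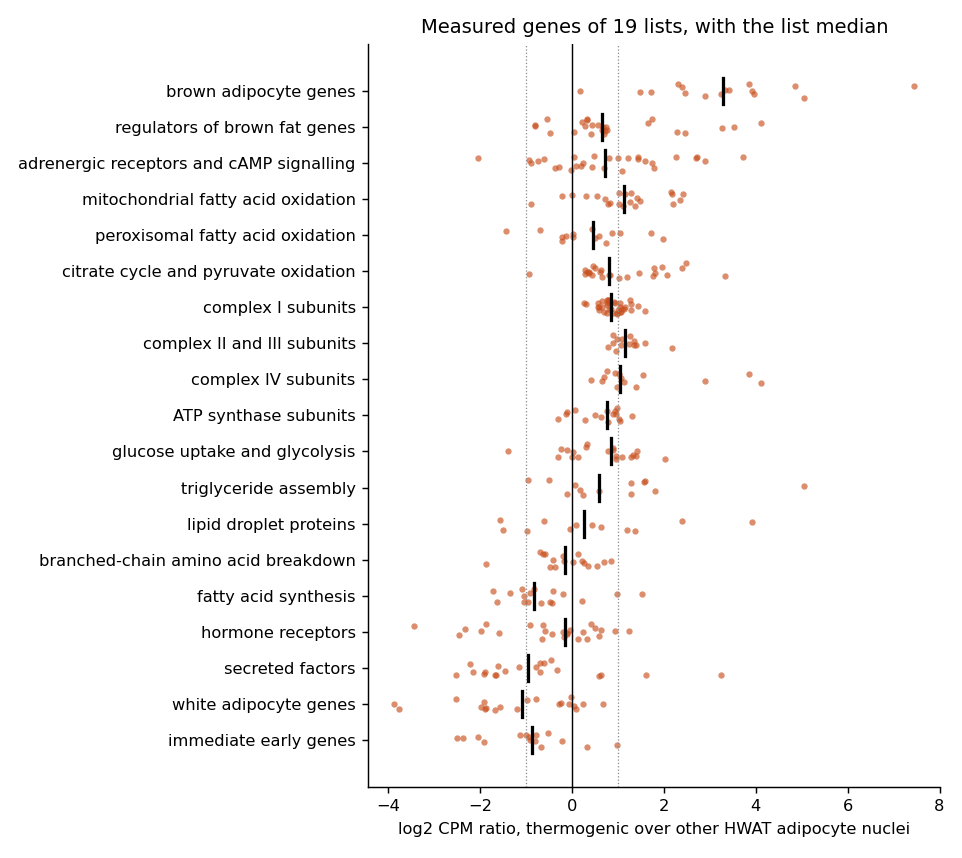
Each point is a measured gene of a list, placed by its log2 CPM ratio of thermogenic over other HWAT adipocyte nuclei over all nuclei (horizontal axis), with a vertical bar at the list's median, dotted lines at 2-fold and a random vertical offset. Medians run from 3.29 for brown adipocyte genes to -1.09 for white adipocyte genes, complex I subunits form a narrow band, and Egr1, at a ratio of 0, is left out.

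The thermogenic nuclei differed among themselves, and summed levels changed on both sides of the threshold. Whether single nuclei followed a gradient or were a changing mix of kinds was not tested. Grouped by UMIs of the 4 selecting genes, 1371 nuclei held 0, 153 held 1, 56 held 2, 70 held 3 to 5, 67 held 6 to 10 and 57 held over 10, with median depths of 2021, 2174, 2460.5, 2000, 2462 and 3088 UMIs. Cidea was higher in each successive group, with 119, 499, 1124, 2178, 2817 and 3374 CPM, so that nuclei just inside the threshold held 1124 CPM (962 to 1307) and nuclei just outside held 499 CPM (430 to 575). Slc7a10 was lower in each, with 596, 331, 92.6, 44.2, 17.6 and 10.8 CPM, and so was Cyp2e1, a cytochrome P450 named after its values had been seen, with 2911, 2042, 1065, 714, 176 and 151 CPM. Some genes did not follow the order. Esrrg reached 992 CPM at 6 to 10 UMIs and 442 CPM (352 to 549) over 10, Pparg 2381 CPM at 3 to 5 UMIs and 1056 CPM over 10, and A530065N20Rik 208 CPM (143 to 293) at 3 to 5 UMIs and 53.9 CPM (25.8 to 99.1) over 10. The group over 10 held 9 heart-rich nuclei and 3045 CPM of heart muscle genes, and without them Esrrg was at 460 CPM, Pparg at 1282 CPM and A530065N20Rik at 69.7 CPM. Adrb3 showed no trend, with values between 278 and 440 CPM.

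**Figure D4:**
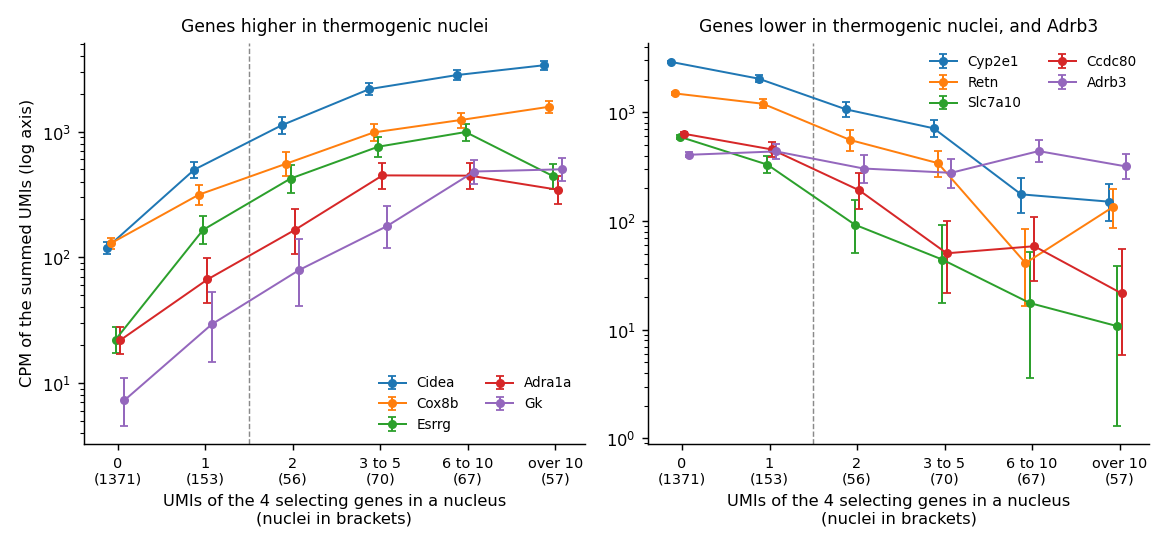
CPM of the summed UMIs (log axis, bars are 95% counting intervals) in adipocyte nuclei of HWAT grouped by their UMIs of the 4 selecting genes (horizontal axis, nuclei in brackets, with the dashed line at the threshold of 2). From left to right Cidea goes up to 3374 CPM and Slc7a10 down to 10.8 CPM, while Adrb3 stays between 278 and 440 CPM.

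Single nuclei spread widely around these levels. In 1000 UMIs drawn per nucleus, the brown adipocyte list gave a median of 8 UMIs (0 to 35) in 244 thermogenic nuclei and of 1 UMI (0 to 16) in 1402 other adipocytes. Of the thermogenic nuclei 7 had 0, against 675 of the other adipocytes, so the groups overlapped at the low end. The mitochondrial fatty acid oxidation list had a median of 8 UMIs (2 to 22) in thermogenic nuclei and of 3 UMIs (0 to 14) in the other adipocytes. For the white list without Cfd and Fabp4 the medians were 6 UMIs (0 to 17) in thermogenic nuclei and 10 UMIs (0 to 27) in the other adipocytes, and for fatty acid synthesis 5 UMIs (0 to 45) in thermogenic nuclei and 9 UMIs (0 to 55) in the other adipocytes. Respiratory chain and ATP synthase genes gave 49 UMIs (5 to 189) in thermogenic nuclei and 24 UMIs (1 to 140) in the other adipocytes. Every one of these ranges overlapped between the groups.

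Adipocytes of the other depots, gated in the same way and with at most 1 UMI of the 4 genes, set the thermogenic nuclei in context, although depot and library cannot be told apart. Cidea stood at 2436 CPM in thermogenic nuclei, 161 CPM in the other HWAT adipocytes, 84.1 CPM in SWAT, 0.956 CPM in EWAT, 13.1 CPM in MWAT and 13.5 CPM in NWAT. Ppara was at 1171 CPM in thermogenic nuclei, 101 CPM in the other HWAT adipocytes and between 37.9 and 81.3 CPM in the other 4 depots. Adra1a was at 355 CPM in thermogenic nuclei, 26.8 CPM in the other HWAT adipocytes and between 11.2 and 46.8 CPM elsewhere. For these genes the thermogenic nuclei lay above every other group. Adrb3 had another order, with 337 CPM in thermogenic nuclei, 410 CPM in the other HWAT adipocytes, 1270 CPM in SWAT, 1735 CPM in EWAT, 1093 CPM in MWAT and 1472 CPM in NWAT. Slc7a10 was at 39.1 CPM in thermogenic nuclei, 567 CPM in the other HWAT adipocytes and between 522 and 896 CPM in the other depots. The 37 SWAT nuclei that met the whole rule, with 96040 UMIs, held 812 CPM (642 to 1014) of Cidea and 541 CPM of Ppara. Their Pdk4 level, 906 CPM (726 to 1117), and Ntrk3 level, 750 CPM (587 to 944), compare with 640 CPM (581 to 704) and 600 CPM (542 to 661) in the HWAT thermogenic nuclei. Adrb3 reached 1145 CPM (941 to 1380) in the 37 SWAT nuclei, against 337 CPM in the thermogenic nuclei of HWAT. Lncbate10 had 0 UMIs in the 37 SWAT nuclei, where 3 counts over the group would be 31.2 CPM, against 155 CPM (126 to 188) in the HWAT thermogenic nuclei.

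**Figure D5:**
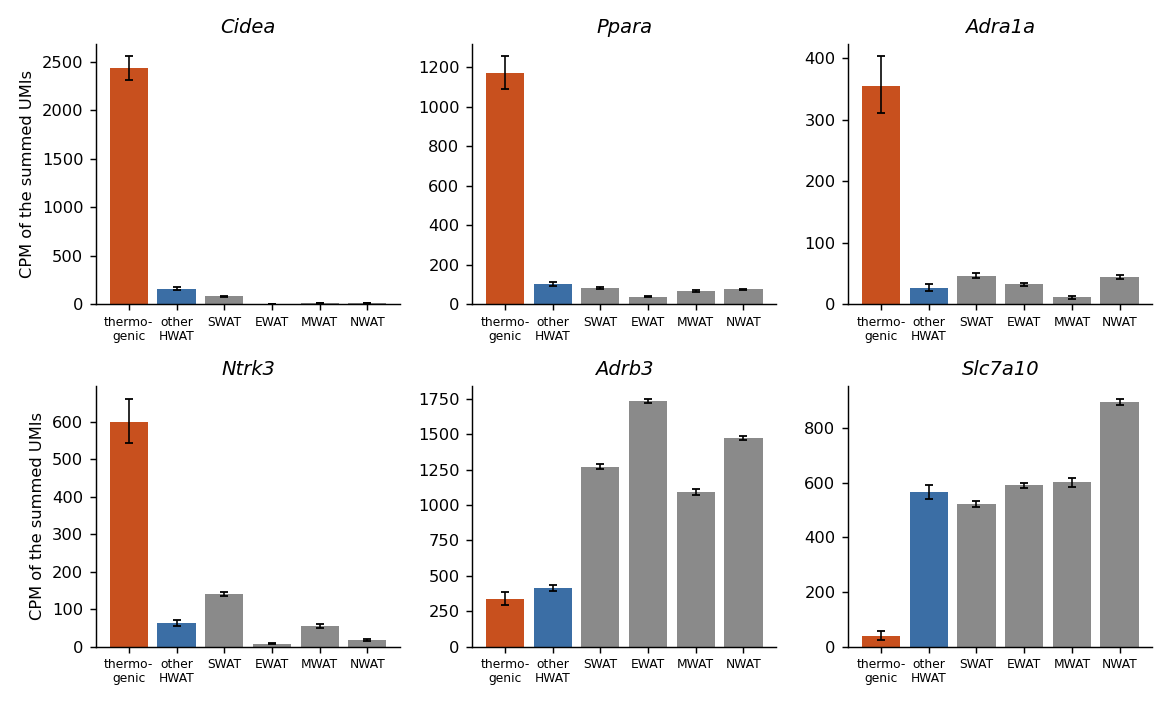
CPM of the summed UMIs (vertical axes, from 0) of 6 genes in thermogenic HWAT nuclei, other HWAT adipocytes and the gated adipocytes of SWAT, EWAT, MWAT and NWAT, with 1 library per depot and bars for 95% counting intervals. Cidea, Ppara, Adra1a and Ntrk3 are highest in the thermogenic nuclei, Slc7a10 is lowest there, and Adrb3 lies at 337 and 410 CPM in the HWAT groups, below the 1093 to 1735 CPM of the other depots.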

How the data were processed

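Single-nucleus RNA libraries of 5 depots were analysed, 1 pooled library per depot, with groups taken from the sample labels. The authors deposited raw UMI counts per gene and nucleus. Per the file headers these come from Cell Ranger 6.0.1, and the submitters' processing notes name mm10 as the build. Which annotation was used, and whether intronic reads were counted, is not given in the sources used here. Libraries held 23313545 to 43855063 UMIs, and every barcode had at least 500 UMIs. The members, gene lists and alternatives were chosen with earlier results of these data known.

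Counts were summed over the nuclei of a group and scaled to CPM. Intervals are exact (Poisson, Clopper-Pearson, conditional binomial for ratios), at 95%, and cover counting error only. Genes needed 50 UMIs over both groups, and a ratio of at least 2 or at most 0.5 was called higher or lower. The 4 selecting genes, the 17 genes that gated adipocytes and mitochondrial genes were left out of the counts. Named genes were the 15 with the highest lower bound and the 10 with the lowest upper bound of the ratio, members of the brown, regulator, adrenergic, calcium and isoform lists, and from every other list up to 4 with the most UMIs and 4 farthest from a ratio of 1. A list symbol absent from the files was dropped. Some members of these lists are not reported here. No doublets were removed in the main values, and a doublet score was an alternative. B-cell and stromal nuclei of HWAT had at least 3 UMIs over 5 class markers. They also had at most 1 UMI over the 8 adipocyte genes and at most 1 over the markers of the other classes together. Other settings were another minimum of UMIs, thinning, stricter filters on nuclei and other scalings. The ratio calculation was tested on simulated data. Positions came from GENCODE vM21 (GRCm38), matched for 25 of 25 named genes, and promoters from RefSeq GRCm38.p6. Tools were Python 3.11.15, numpy 2.4.6, SciPy 1.17.1, pandas 2.3.3, scikit-learn 1.9.0, matplotlib 3.10.9, R 4.3.3 and edgeR 4.0.16 (TMM factors only).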

Additional observations from a re-analysis of the deposited data

How the results depend on the processing

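Of 17 alternatives, 2 (leaving out heart-rich nuclei, and leaving out barcodes shared with another library) were chosen after seeing the data. Over 153 results, 2142 values stayed near their main value, 280 moved and 3 reversed. A gene ratio or the share of adipocytes was near when it lay inside its main interval. A count was near within 1.5-fold, and a median log2 ratio within 0.25. A near value could still cross the 2-fold line. The number of thermogenic nuclei was 143 with at least 5 UMIs of the 4 selecting genes, 126 with at most 2% mitochondrial UMIs and 149 when nuclei were thinned to 1000 UMIs before selection, and their share of adipocytes was 8.58%, 9.77% and 9.89% in that order and 11.3% with at least 3 UMIs. Genes at least 2-fold higher numbered 366 after thinning both groups, 3162 with no minimum of UMIs, 210 with at least 200 UMIs and 211 where the whole interval lay beyond 2-fold, and genes at least 2-fold lower 5144, 266 and 161 under the last 3 of these settings. With no minimum, genes of 1 or 2 UMIs enter by construction. Thinning and the minimum of UMIs also change how many genes are measured, so these counts are not to be read as shares. Cox6a2 reversed to 0.814 without heart-rich nuclei, and Tbx1, with 1 UMI in thermogenic nuclei, went to 0 when nuclei with any other-cell UMI or with the highest doublet scores (30 thermogenic and 123 other adipocytes) were left out. The median log2 ratio changed sign between settings for the fatty acid uptake list (-0.46 to 0.38), the hormone receptor list (-0.58 to 0.01), the Hox list (-1.82 to 0.15) and all genes (-0.09 to 0.24). No paired analysis was possible because each depot had 1 library. Genes with few UMIs have wide intervals, and differences between mice cannot be seen in a pool.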

Other observations

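Further genes ranked below the 15 highest and the 10 lowest are named here, chosen after their values had been seen. Cdh2, the cell adhesion protein N-cadherin, had 75 UMIs in thermogenic nuclei and 24 UMIs in the other adipocytes (ratio 16.0, 9.97 to 26.4). Nrp2, a coreceptor of semaphorins and vascular growth factors, was 9.39-fold higher (7.24 to 12.2), Nav2, a cytoskeletal guidance protein, 11.1-fold (7.56 to 16.6), and Mapt, the microtubule protein tau, 10.6-fold (6.48 to 17.9). Coq8a, needed to make ubiquinone, was 8.83-fold higher (6.83 to 11.5), and Col27a1, a fibrillar collagen, 12.7-fold (8.00 to 20.6). These 6 had ratios above 8 without the heart-rich nuclei too. In the same stretch of the ranking, the cardiac troponin genes Tnni3 and Tnnt2 had ratios of 16.3 and 13.1 over all nuclei and of 0.438 and 0.518 without the heart-rich ones, and Tpm1, a tropomyosin of muscle, had 6.72 over all nuclei and 2.06 without them.

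Next among the low genes, Gpt2, a mitochondrial transaminase that makes alanine, had 3 UMIs in thermogenic nuclei and 232 UMIs in the other adipocytes (ratio 0.0661, 0.0135 to 0.195). Chrdl1, a secreted BMP antagonist, had 2 UMIs in thermogenic nuclei and 212 UMIs in the other adipocytes, and Grb10, an imprinted adaptor that dampens insulin signalling, 12 UMIs in thermogenic nuclei and 597 UMIs in the other adipocytes. Nnat, an imprinted proteolipid gene, had 1232 CPM in thermogenic nuclei and 5690 CPM in the other adipocytes (ratio 0.217), and C4b, a complement component, had a ratio of 0.200. Igha, an antibody heavy chain gene of plasma cells, went against its list with 32 UMIs in thermogenic nuclei and 26 UMIs in the other adipocytes, while Igkc had a ratio of 0.693. Of 27 Hox genes, which mark position along the body, 2 were measured: Hoxb3 had a ratio of 0.779 and Hoxb4 one of 0.448.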
